A study of Mus musculus with 11 samples.

Results

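Oxidative phosphorylation genes of the mouse nuclear genome were examined for H3K4me3, WDR5 and P53 in day 2 embryoid bodies. The members were chosen by gene symbol from the mm10 annotation: all Ndufa, Ndufb, Ndufc, Ndufs, Ndufv and Uqcr genes, Sdha to Sdhd, and the Cox4 to Cox8 genes. This gave 79 of 21887 protein-coding genes. The family itself was selected on the peak calls of these same lists, so the counts of peaks at its members are descriptions without a test. A member was counted as called, or marked, where a peak lay within 1000 bases of either end of its span. The symbols took in 41 genes named for complex I, 4 of complex II, 8 of complex III and 18 of complex IV. They also took in 8 complex I assembly factors (Ndufaf1 to Ndufaf8), which are not part of the finished enzyme. Ndufa4, named for complex I, is now regarded as a complex IV subunit, and Cox7a2l is known as a factor that joins complexes III and IV, so the symbol is a guide to function and not a proof of it.

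Oxidative phosphorylation couples electron transport in the inner mitochondrial membrane to ATP synthesis. Complex I takes electrons from NADH and complex II takes them from succinate. Both pass them through ubiquinone to complex III, which hands them by cytochrome c to complex IV, where oxygen is reduced. Most subunits are encoded in the nucleus, and several complex IV subunits exist as a widely used form and a tissue-restricted form. H3K4me3, trimethylated lysine 4 of histone H3, marks the starts of active genes and is written by MLL and SET1 complexes that contain WDR5 as a scaffold. P53 is a stress-activated transcription factor that also influences mitochondrial metabolism.

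The cells compared were embryoid bodies lacking Wdr5 and p53 (DKO), embryoid bodies lacking Wdr5 (KO), and wild-type embryoid bodies (WT), all from mouse embryonic stem cells with a GFP knock-in at Rx. All were differentiated by the SFEBq method with 5% KSR, with doxycycline withdrawn at day 0 and 2% matrigel added at day 1. What doxycycline controls in each genotype, and whether a genotype is 1 clone, is not given in the sources used here. Profiles came from CUT&RUN, in which an antibody tethers a nuclease that releases the bound DNA. WDR5 and P53 had 2 peak lists in DKO and 2 in WT, while H3K4me3 had a single list per genotype. The H3K4me3 libraries held 43.2 M fragments and 6418 peaks in DKO, 22.3 M and 918 in KO, and 34.2 M and 9836 in WT. With 1 library per genotype, differences between genotypes have no replicate check, and depth and genotype cannot be told apart in the KO list. Fewer cells with a mark and less of the mark per cell cannot be told apart either.

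Marker genes for the labelled material were partly marked. The stem cell genes Pou5f1, Sox2, Utf1 and Tet1 were marked in all 3 genotypes, and Nanog only in the DKO list. Of 6 early epiblast and anterior neural genes, Otx2, Zic2 and Sox11 were marked in WT, while Six3, Lhx2 and the reporter locus Rax had no peak in any genotype. No gene of 4 extraembryonic endoderm and 3 mesoderm markers was marked in any genotype, and Eomes and Thy1 were marked in WT alone among 4 trophoblast and 4 fibroblast feeder markers.

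H3K4me3 was called at 45 members in DKO (57.0%, Wilson 95% interval 46.0 to 67.3), at 10 in KO (12.7%, 7.02 to 21.8) and at 58 in WT (73.4%, 62.8 to 81.9). Over all protein-coding genes the shares were 22.8% in DKO, 3.2% in KO and 35.5% in WT. The intervals cover counting error only. Of the 58 members marked in WT, 43 were also marked in DKO (74.1%, 61.6 to 83.7) and 10 in KO (17.2%, 9.64 to 28.9). Among all 7762 genes marked in WT the shares were 59.8% in DKO and 8.98% in KO. Every member marked in KO was marked in WT, as were 697 of all 701 genes marked in KO. There were 14 members marked in WT alone. A further 19 members had no H3K4me3 peak at an end in any genotype. The shares of all genes marked in WT alone or in no genotype were not counted. The end of a span is not always the start of the RefSeq transcript, and 63 members had such a start in a RefSeq promoter table. Within 1000 bases of that start, 39 of the 63 were marked in DKO, 8 in KO and 51 in WT, against 24.9%, 3.46% and 38.3% of the 17492 genes in the table. By span ends, 36 of these 63 were marked in DKO, 8 in KO and 48 in WT. Cox5a, Cox7a2 and Ndufa13 were gained in both DKO and WT, and none was lost. The counts that follow use span ends.

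**Figure D1:**
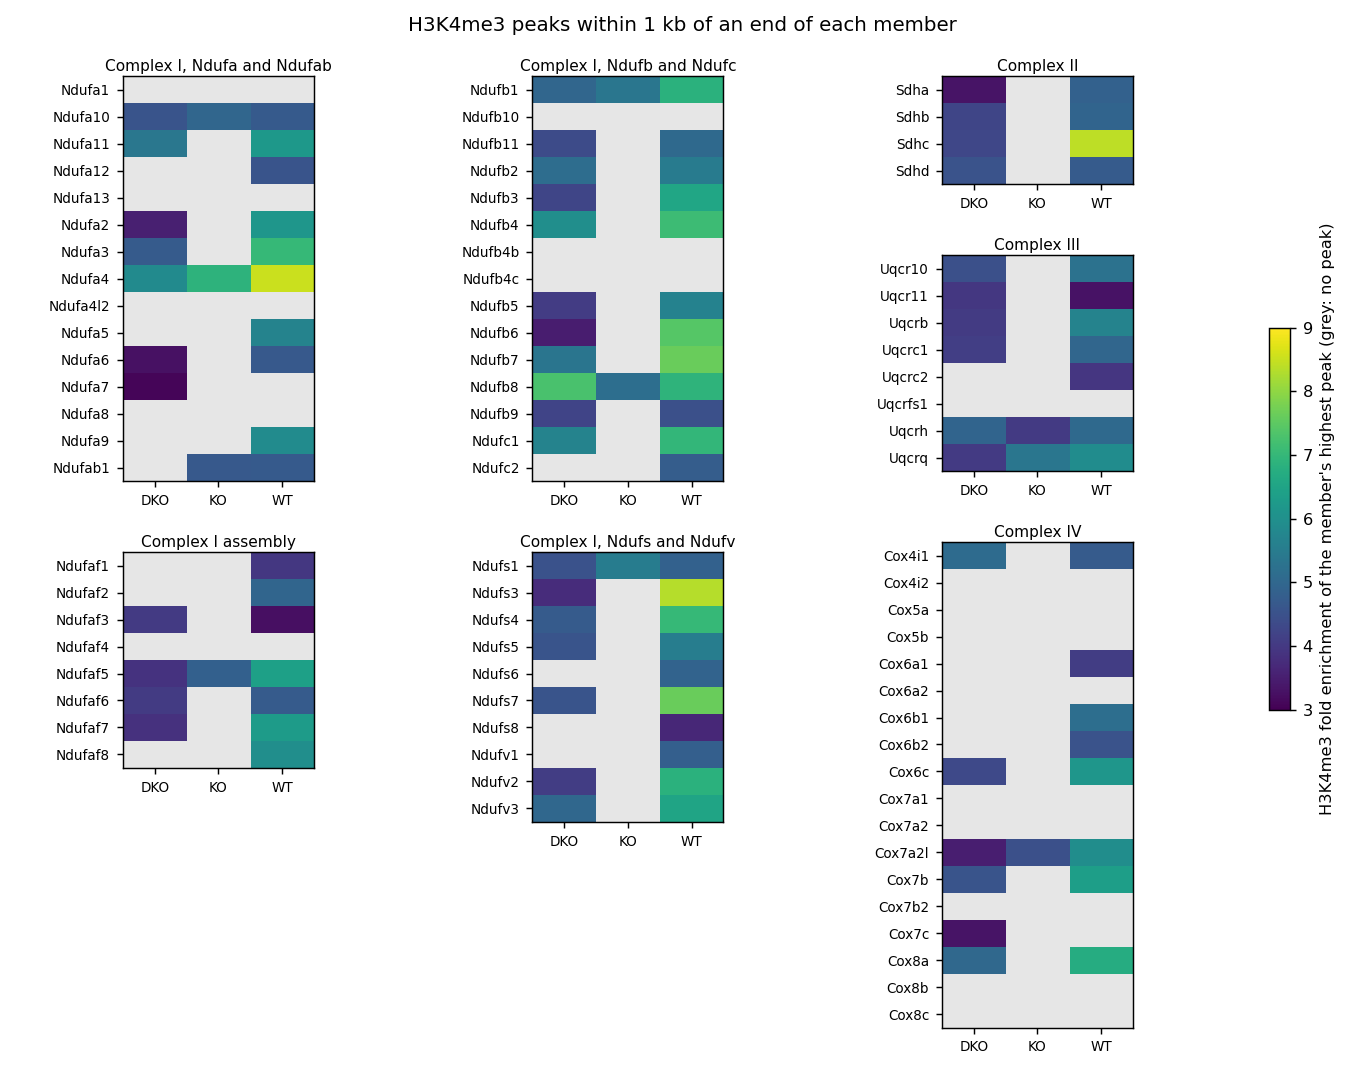
H3K4me3 fold enrichment of the highest peak within 1 kb of an end of each of 78 members, in DKO, KO and WT columns, grouped by complex; colour runs from 3 to 9 and grey means no peak. Colour fills 45 cells in the DKO columns, 10 in the KO columns and 58 in the WT columns, and the values of the 3 lists are not scaled to each other.

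Fold enrichment is the authors' ratio of fragment coverage at a summit to that library's background around it. At the members it had a median of 4.33 in DKO, 5.08 in KO and 5.59 in WT. Over all marked genes the medians were 4.03 in DKO, 4.6 in KO and 4.72 in WT. The highest member in WT was Ndufa4 at 8.51, which ranked 69 of 9836 peaks, and the lowest was the assembly factor gene Ndufaf3 at 3.26. Member peaks had a median width of 465 bases in DKO, 355 bases in KO and 685.5 bases in WT. Over all marked genes the median widths were 467 bases in DKO, 387 in KO and 596 in WT. All 10 KO peaks and 34 of the 43 DKO peaks at members marked in WT were narrower than the WT peak of the same gene. This was not counted over all genes, whose median widths were also smaller in DKO and KO than in WT.

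**Figure D2:**
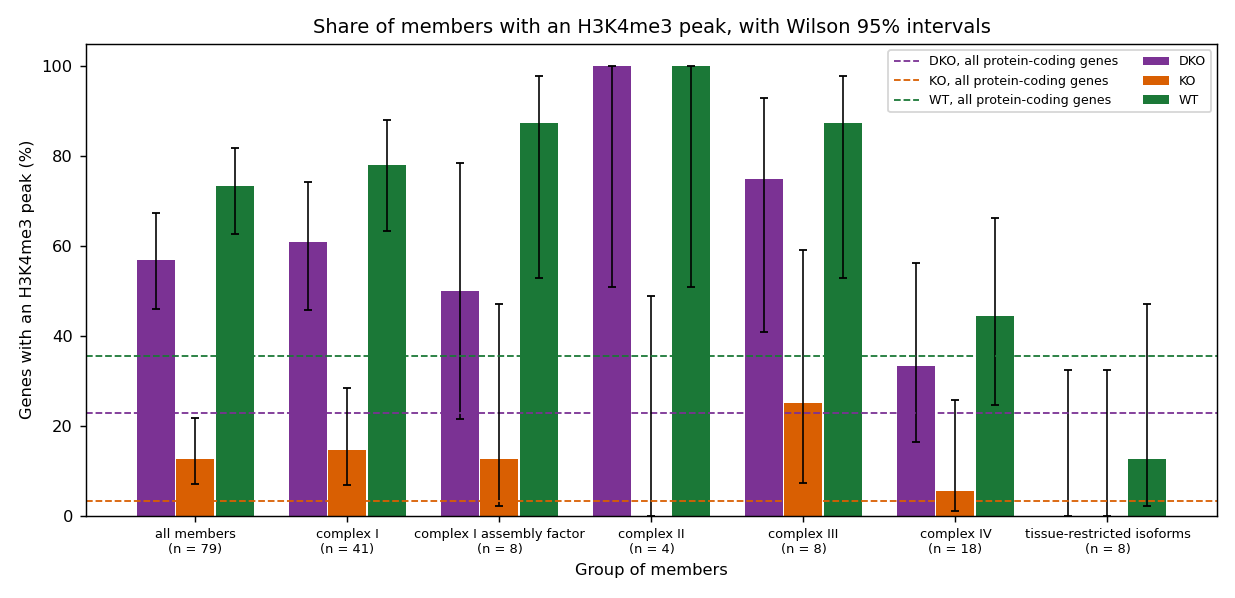
Share of genes with an H3K4me3 peak (vertical axis, percent) for all members and for each group of members, with DKO, KO and WT bars and Wilson 95% intervals; dashed lines give the share over all protein-coding genes. The tissue-restricted isoforms are also counted within their complexes, and 1 of the 8 was marked, in WT only.

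The core subunits of complex I carry its flavin and iron-sulfur clusters or line the path of electrons to ubiquinone. Of these 7 genes, 4 were marked in DKO, 1 in KO and 6 in WT. Ndufs3 had a fold enrichment of 3.75 in DKO, no peak in KO and 8.32 in WT, where it ranked 90 in the list. Ndufs7 had 4.55 in DKO, no peak in KO and 7.64 in WT. Ndufv2 had 4.09 in DKO, no peak in KO and 6.82 in WT. These 3 genes were thus high in WT and absent from the KO list. So were most genes this high, as 22.7% of all genes with WT values of 6.20 to 8.51 were marked in KO. Ndufs1, which encodes a subunit with iron-sulfur clusters, was the core gene present in all lists, with 4.52 in DKO, 5.51 in KO and 4.86 in WT. Its WT peak, chr1:63176094-63177544, also reached the end of Eef1b2, an elongation factor gene with an end 9 bases away, so the signal cannot be assigned to either gene. Ndufv1, which encodes the subunit that binds NADH and flavin, was marked in WT alone at 4.81, and Ndufs8 in WT alone at 3.66.

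Accessory subunits surround this core and are needed for its assembly and stability. Of 33 accessory genes, 21 were marked in DKO, 5 in KO and 26 in WT. Ndufa4, placed here by its symbol alone, had a fold enrichment of 5.87 in DKO, 6.88 in KO and 8.51 in WT. It ranked 203 of 6418, 78 of 918 and 69 of 9836 in those lists. Ndufb8 had 7.29 in DKO, 5.16 in KO and 6.90 in WT, and its DKO value ranked 39 of 6418. Ndufb1 had 4.98 in DKO, 5.34 in KO and 6.83 in WT. The ranks of Ndufb1 and Ndufb8 in the KO list were lower, at 240 and 296 of 918. Ndufa10 had 4.55 in DKO, 4.99 in KO and 4.71 in WT. Ndufab1, which encodes the mitochondrial acyl carrier protein, had no peak in DKO, 4.67 in KO and 4.69 in WT, and was the one member marked in KO and not in DKO.

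Other accessory genes high in WT had no KO peak, as was so for most genes with WT values of 6.20 to 8.51 (22.7% marked in KO). Ndufb7 had 5.33 in DKO and 7.63 in WT, Ndufb6 had 3.47 in DKO and 7.41 in WT, and Ndufb4 had 5.98 in DKO and 7.12 in WT. The DKO peak of Ndufb6 lay outside the gene and overlapped no WT peak, so its 2 values belong to different places. The other 13 accessory genes marked in both DKO and WT, with no KO peak, were Ndufa2, Ndufa3, Ndufa6, Ndufa11, Ndufb2, Ndufb3, Ndufb5, Ndufb9, Ndufb11, Ndufc1, Ndufs4, Ndufs5 and Ndufv3. In DKO they ran between 3.26 at Ndufa6 and 5.68 at Ndufc1, and in WT between 4.47 at Ndufb9 and 7.02 at Ndufs4. Ndufa5, Ndufa9, Ndufa12, Ndufc2 and Ndufs6 were marked in WT alone, at fold enrichments from 4.57 at Ndufa12 to 5.89 at Ndufa9. Ndufa7 was marked in DKO alone at 3.09, by a peak 518 bases outside the gene that also lay near Kank3 and Rps28, a ribosomal protein gene. That peak ranked 5989 of 6418 in the DKO list. Ndufa1, Ndufa8, Ndufb10, Ndufb4b and Ndufb4c had no peak. Ndufb4b and Ndufb4c, which bear the name of Ndufb4, have short spans of 471 and 485 bases, and how reads were shared among these genes was not tested. Ndufa13 had no peak within reach of its span ends, but its RefSeq start lay 538 bases inside the span, 465 bases from a DKO peak with a fold enrichment of 4.65 and 473 bases from a WT peak at 4.47. Ndufa4l2, a paralogue of Ndufa4 known for its induction by hypoxia, also had no peak.

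The assembly factors were marked at 4 of 8 genes in DKO, 1 in KO and 7 in WT. Ndufaf5, a methyltransferase-like factor that modifies a core subunit, had 3.89 in DKO, 4.83 in KO and 6.42 in WT. Ndufaf7 had 3.85 in DKO, no peak in KO and 6.30 in WT. Ndufaf3 was higher in DKO at 4.01 than in WT at 3.26 on these unscaled values. Ndufaf6 had 4.04 in DKO, no peak in KO and 4.72 in WT. Ndufaf1, Ndufaf2 and Ndufaf8 were marked in WT alone, and Ndufaf4 in no genotype.

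Complex II, succinate dehydrogenase, is the one complex encoded wholly in the nucleus. All 4 of its genes were marked in DKO and in WT, and none in KO (0%, Wilson 95% interval 0 to 49.0). Sdha, the flavoprotein subunit, had 3.33 in DKO and 4.87 in WT. Sdhb, the iron-sulfur subunit, had 4.26 in DKO and 4.93 in WT. Of the membrane anchors, Sdhc had 4.28 in DKO and 8.41 in WT, and Sdhd had 4.54 in DKO and 4.73 in WT. Sdhc thus ranked 77 in the WT list without being called in KO, while the other 3 genes lay between 4.73 and 4.93 in WT. Of all genes with WT values of 6.20 to 8.51, 22.7% were marked in KO. With 4 genes, the interval includes the KO share of the whole family.

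Complex III was marked at 6 of 8 genes in DKO, 2 in KO and 7 in WT. Uqcrq, a small subunit near the ubiquinone site, had 4.01 in DKO, 5.37 in KO and 5.91 in WT. Uqcrh, the hinge protein, had 4.93 in DKO, 4.02 in KO and 5.05 in WT. The KO peak of Uqcrh lay 428 bases outside the gene on the side of its neighbour Lrrc41 and did not overlap the DKO peak. Uqcr10 had 4.47 in DKO and 5.26 in WT, Uqcrb 4.05 in DKO and 5.68 in WT, and Uqcrc1, a core protein, 4.11 in DKO and 4.97 in WT. Uqcr11 was higher in DKO at 3.98 than in WT at 3.29, again on values that are not scaled. Uqcrc2 was marked in WT alone at 3.95, and Uqcrfs1, the Rieske iron-sulfur protein, in no genotype, with its nearest WT peak 428237 bases away.

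Complex IV, cytochrome c oxidase, was marked at 6 of 18 genes in DKO (33.3%), 1 in KO (5.56%) and 8 in WT (44.4%). The 18 include every isoform listed below as tissue-restricted except Ndufa4l2. They also include Cox5a and Cox7a2, marked in DKO and WT at their RefSeq starts but not at a span end. Complex IV was not counted without these genes. Cox8a had 5.03 in DKO and 6.72 in WT, Cox7b had 4.55 in DKO and 6.35 in WT, and Cox6c had 4.33 in DKO and 6.15 in WT. Cox4i1, the widely used form of subunit 4, had 5.10 in DKO and 4.73 in WT, by a peak 256 bases outside the gene in WT that also lay near Emc8. Among the 18 genes, grouped by symbol, Cox7a2l alone was marked in KO, at 3.51 in DKO, 4.48 in KO and 5.93 in WT. Ndufa4, grouped by its symbol under complex I, was marked in KO too. Cox6a1 and Cox6b1 were marked in WT alone at 4.09 and 5.16. Cox7c was marked in DKO alone at 3.31, a peak that ranked 5418 of 6418 and had a -log10 q of 3.06.

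Of the 8 isoforms listed as tissue-restricted, 7 lacked a peak in every genotype. They were the heart and muscle forms Cox6a2, Cox7a1 and Cox8b, the testis forms Cox7b2 and Cox8c, the lung form Cox4i2, and Ndufa4l2. Of all protein-coding genes, 22.8% were marked in DKO, 3.2% in KO and 35.5% in WT, so most genes lacked a peak too. Cox4i2, Cox6a2, Cox8c and Ndufa4l2 were not in the promoter table, so their RefSeq starts could not be checked. The remaining isoform, the testis form Cox6b2, was marked in WT at 4.53. Its peak of 1202 bases, chr7:4751824-4753025, lay over the body of the gene and near an end of Fam71e2. Without these isoforms, 45 of 71 members were marked in DKO, 10 in KO and 57 in WT. Cox5a, Cox5b and Cox7a2, which are widely used forms, had no peak at a span end in any genotype. The RefSeq start of Cox5a lay 3904 bases inside its span, and a DKO peak at 4.17 was 161 bases from it and a WT peak at 6.46 was 97 bases from it. The RefSeq start of Cox7a2 lay 11569 bases inside its span, with a DKO peak at 3.85 at 138 bases and a WT peak at 7.47 at 113 bases. Both genes were thus marked at their RefSeq start in DKO and WT, with no KO peak there. The start of Cox5b is its span end, and its nearest WT peak was 16092 bases from an end.

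The window of 1000 bases left a few members close to its edge. Ndufa13 lay just outside by its span, 1003 bases from a DKO peak and 1011 bases from a WT peak, and Ndufb10 lay 1075 bases from a WT peak. The farthest members inside were Ndufa6 at 635 bases in DKO, Uqcrh at 428 bases in KO and Ndufaf8 at 280 bases in WT. Of the 21 members without a WT peak, 14 had none within 5000 bases.

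The added loss of p53 was examined by setting DKO beside KO. Of the 45 members marked in DKO, 9 were marked in KO, or 20.0%, against 13.2% of all genes marked in DKO. Of the 10 members marked in KO, 9 were marked in DKO, against 93.9% of all genes marked in KO. So 36 members were marked in DKO and not in KO. The KO library was the shallowest of the 3, and the part of its depth in these counts was not tested. When each list was shortened to its 918 peaks with the highest -log10 p, 13 members were marked in DKO, 10 in KO and 18 in WT. The shares over all genes were then 3.9% in DKO, 3.2% in KO and 4.35% in WT. Ndufa4, Ndufb1 and Ndufb8 were in all 3 shortened lists. Ndufs1 and Uqcrh were shared by DKO and KO, and Ndufaf5 by KO and WT. With lists of equal length, 5 members were marked in DKO and KO, 8 in DKO and not in KO, and 5 in KO and not in DKO. The overlaps of the shortened lists were not counted over all genes.

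Ordered by WT fold enrichment, the 20 highest members (6.20 to 8.51) were all marked in DKO and 4 of them in KO. Of all genes with WT values in that range, 87.2% were marked in DKO and 22.7% in KO. In the middle 19 (4.90 to 6.15), 13 were marked in DKO and 3 in KO, against 72.1% and 11.5% of all genes in the range. In the lowest 19 (3.26 to 4.87), 10 were marked in DKO and 3 in KO, against 47.3% and 4.42% of all genes in the range. The 4 in the highest group were Ndufa4, Ndufb8, Ndufb1 and Ndufaf5. The median WT fold enrichment was 5.92 for the 10 members marked in KO and 5.51 for the 48 that were not. Among all genes marked in WT it was 5.59 for those marked in KO and 4.63 for the others. For DKO, it was 6.14 for the 43 members marked there and 4.76 for the 15 that were not, against 5.06 and 4.27 over all genes. Across the 43 members marked in both DKO and WT, the DKO value exceeded the WT value at 4, and Spearman's rho between them was 0.33. Over all 4638 such genes, the DKO value was higher at 765 (16.5%, against 9.3% of the members) and rho was 0.39. These correlations run across genes that share libraries and local background, and are given as a description.

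**Figure D3:**
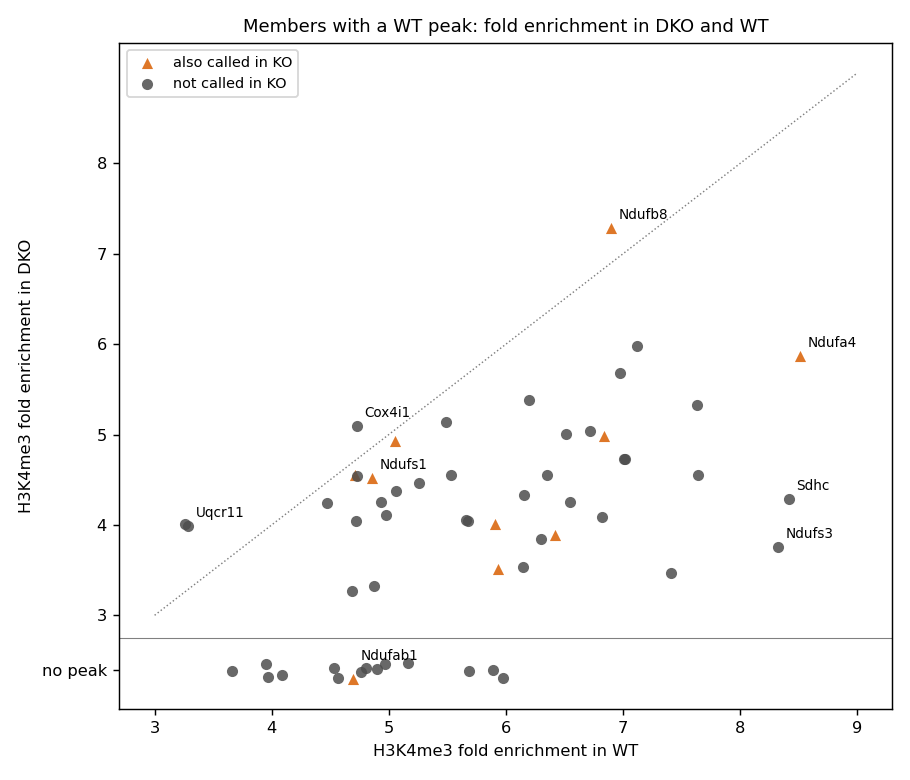
H3K4me3 fold enrichment in DKO (vertical axis) against WT (horizontal axis) for the 58 members marked in WT; triangles were also marked in KO, circles were not, the dotted line marks equal values, and the strip at the bottom holds the 15 members without a DKO peak (spread vertically for visibility). All 20 members with a WT value of at least 6.20 lie above the strip, and 4 members, among them Ndufb8 at 7.29 and Cox4i1 at 5.10, lie above the dotted line.

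The promoter windows of members marked in KO show where their KO peaks lay. RefSeq windows on GRCm38.p6, the assembly of mm10, run from 250 bases before a gene's start to 50 after it, and 63 of the 79 members had one. The members with a KO peak were taken in order of KO fold enrichment. Of the first 6 with a window, Ndufb8 and Ndufab1 had KO peaks that did not reach the window. The windows of the other 4 are shown on the strand of the gene, with the bases inside the KO H3K4me3 peak in capitals.
Ndufa4, chr6:11907401-11907700, minus strand: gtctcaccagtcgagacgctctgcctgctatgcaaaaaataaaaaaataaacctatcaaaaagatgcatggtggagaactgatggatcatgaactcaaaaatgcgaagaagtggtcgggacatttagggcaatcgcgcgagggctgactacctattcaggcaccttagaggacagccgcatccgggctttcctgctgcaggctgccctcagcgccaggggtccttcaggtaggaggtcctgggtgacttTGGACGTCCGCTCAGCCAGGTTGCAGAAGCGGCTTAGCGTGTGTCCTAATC
Ndufb1, chr12:101975689-101975988, minus strand: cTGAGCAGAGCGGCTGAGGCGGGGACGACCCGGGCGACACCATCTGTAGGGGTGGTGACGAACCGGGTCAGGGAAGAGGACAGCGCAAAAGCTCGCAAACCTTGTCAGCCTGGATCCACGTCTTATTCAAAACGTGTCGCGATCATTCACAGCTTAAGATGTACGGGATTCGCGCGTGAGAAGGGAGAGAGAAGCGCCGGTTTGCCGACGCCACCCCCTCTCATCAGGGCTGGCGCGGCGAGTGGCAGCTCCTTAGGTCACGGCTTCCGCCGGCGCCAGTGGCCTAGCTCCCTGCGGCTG
Ndufa10, chr1:92473709-92474008, minus strand: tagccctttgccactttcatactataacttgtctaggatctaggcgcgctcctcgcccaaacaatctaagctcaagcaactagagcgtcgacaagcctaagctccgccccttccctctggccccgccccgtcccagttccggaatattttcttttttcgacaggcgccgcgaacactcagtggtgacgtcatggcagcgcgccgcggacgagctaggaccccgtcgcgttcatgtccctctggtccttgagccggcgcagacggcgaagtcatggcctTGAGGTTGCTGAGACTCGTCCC
Ndufaf5, chr2:140170396-140170695, plus strand: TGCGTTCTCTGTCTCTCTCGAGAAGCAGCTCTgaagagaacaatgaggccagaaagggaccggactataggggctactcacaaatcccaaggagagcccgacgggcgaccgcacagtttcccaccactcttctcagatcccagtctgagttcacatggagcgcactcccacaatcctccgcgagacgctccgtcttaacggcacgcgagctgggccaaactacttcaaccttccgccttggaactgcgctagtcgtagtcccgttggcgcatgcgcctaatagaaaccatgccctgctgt

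In Ndufa4 the KO peak covered the last 51 bases of the window, against 134 in DKO and 70 in WT. In Ndufa10 it covered 22 bases at the end of the window, against 25 in DKO and 73 in WT. In Ndufb1 it covered 299 of the 300 bases, with full cover in DKO and in WT, and the neighbouring gene Cpsf2 has an end 21 bases away. In Ndufaf5 it covered the first 32 bases, away from the gene's start and on the side of Esf1, against 66 bases in DKO and all 300 in WT. The KO peaks of Ndufa4 and Ndufa10 thus lay downstream of the start, and that of Ndufaf5 upstream. Each of the 10 KO peaks lay wholly inside a WT peak, and 6 of them lay wholly inside a DKO peak. This was not counted over all KO peaks.

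Where a member had several peaks at its ends, the summit of the peak with the highest fold enrichment was taken. Among members with a known strand, this summit was inside the gene at 27 of 36 in DKO, 5 of 8 in KO and 38 of 48 in WT. The medians were 171.5 bases after the start in DKO, 158 in KO and 166.5 in WT. The WT summits nearest to the start on either side lay at -278 and 53 bases. Where the summit was upstream, a second protein-coding gene had an end within 1000 bases of the peak at 8 of 9 members in DKO, 3 of 3 in KO and 9 of 10 in WT. Where it was downstream, this held for 9 of 27 in DKO, 1 of 5 in KO and 12 of 38 in WT. These counts were not made over all genes. The upstream peaks included those of Ndufb5, on the side of the mitochondrial ribosomal gene Mrpl47, and Sdha, on the side of Ccdc127. In WT, Sdha, Ndufb11 and Cox6a1 each also had a peak of lower fold enrichment inside the gene, 78, 77 and 2 bases from the start.

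**Figure D4:**
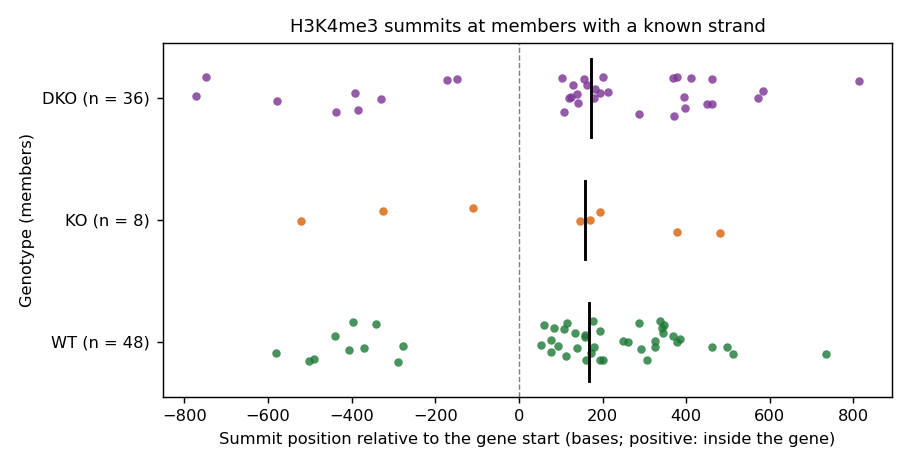
Position of each member's H3K4me3 summit relative to the gene start (horizontal axis, bases, positive inside the gene), in DKO, KO and WT rows. Only members with a known strand are drawn, and the summit is that of the member's highest peak. Points are members, spread vertically for visibility, and black bars are medians. The medians lie at 171.5, 158 and 166.5 bases, and the stretch next to the start is empty in all 3 rows.

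An end of another protein-coding gene lay within 1000 bases of an end of 45 of the 79 members (57.0%), against 24.8% of all protein-coding genes. Among genes marked in WT the shares were 60.3% of 58 members and 41.8% of all 7762. Examples are Ndufs6 with Mrpl36, whose ends are 21 bases apart, Ndufs3 with Kbtbd4 at 19 bases and Sdhd with Timm8b, an import chaperone gene, at 52 bases. The H3K4me3 peak lay within reach of a second gene at 24 of 45 marked members in DKO, 6 of 10 in KO and 28 of 58 in WT. At these members the peak cannot be assigned to one gene of the pair. The same share over all marked genes was not counted.

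Sequence motifs of factors known to regulate respiratory chain genes were counted in the 65 windows of the 63 members, on both strands. The NRF1 core GCGCATGC was found in 13.8% of member windows, against 3.52% of all 21263 windows and 5.75% of windows of genes marked in WT. The ETS family core CCGGAAG, read by GABP, was found in 20.0%, against 11.6% and 20.9%. All 13 windows with it belonged to members marked in WT at a span end (26.5% of 49 windows), and 0 of the 16 other windows held it. The 16 include those of Cox5a, Cox7a2 and Ndufa13, which were marked in WT at their RefSeq start. The share over all genes not marked in WT was not counted, so the 0 has no background beside it. The YY1 core ATGGCGG was found in 16.9%, against 5.25% and 9.43%. The SP family core GGGCGG was in 46.2% of member windows, in 46.2% of all windows and in 66.9% of windows of genes marked in WT. Of the 49 windows of members marked in WT, 46.9% held it. TATAAA was in 10.8% of member windows, 12.6% of all windows and 6.1% of windows of genes marked in WT. None of these motifs contains another. The median number of CpG dinucleotides was 19 in member windows, 13 in all windows and 22 in windows of genes marked in WT.

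The NRF1 core occurred at 10 places in 9 members. The ETS family, YY1 and SP family cores were each in more member windows. The NRF1 places are shown on the strand of the gene with up to 12 bases on each side and the motif in capitals.
Cox6a1, chr5:115349099-115349132, minus strand: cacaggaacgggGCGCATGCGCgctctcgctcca
Ndufa11, chr17:56717690-56717723, plus strand: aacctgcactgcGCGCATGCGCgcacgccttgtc
Ndufa6, chr15:82354355-82354386, minus strand: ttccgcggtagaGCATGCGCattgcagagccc
Ndufa8, chr2:36049327-36049358, minus strand: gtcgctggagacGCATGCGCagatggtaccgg
Ndufaf4, chr4:24897958-24897991, plus strand: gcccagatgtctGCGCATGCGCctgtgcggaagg
Ndufaf4, chr4:24898072-24898103, plus strand: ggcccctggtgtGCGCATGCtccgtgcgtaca
Ndufaf5, chr2:140170650-140170683, plus strand: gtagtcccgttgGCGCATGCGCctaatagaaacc
Sdhb, chr4:140961205-140961236, plus strand: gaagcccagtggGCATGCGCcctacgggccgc
Uqcr11, chr10:80406806-80406837, minus strand: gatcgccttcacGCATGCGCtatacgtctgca
Uqcrc1, chr9:108936666-108936697, plus strand: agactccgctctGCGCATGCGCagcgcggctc

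In 5 of the 10 places the core and its reverse complement overlapped to form the full palindrome of 10 bases. Of the 9 members, 6 were marked in DKO, 1 (Ndufaf5) in KO and 7 in WT. Ndufa8 and Ndufaf4 carried the letters and had no H3K4me3 peak in any genotype. Of the 8 member windows of genes marked in KO, 1 held the NRF1 core, 1 the ETS core and none the YY1 core. A match describes the letters of a window and does not show that a factor bound there.

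WDR5 was called at few members. In DKO, 0 members had a peak in both WDR5 lists and 1 had a peak in either list. In WT, 0 members had a peak in both WDR5 lists and 4 had a peak in either list (5.06%, Wilson 95% interval 1.99 to 12.3). Over all protein-coding genes, 0.653% had a WDR5 peak in either DKO list, 2.46% in either WT list and 1.48% in both WT lists. In WT, 77.3% of list 2 summits coincided to the base with list 1 summits, so the lists were not counted as separate replicates, and all 4 peaks were in list 1 alone.

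The 4 WT peaks lay at genes of different complexes. The highest was at Uqcrq, chr11:53431032-53431227, at a fold enrichment of 5.64, 201 bases from the gene and 233 bases from its WT H3K4me3 peak. Sdha had a WDR5 peak of 229 bases just inside the gene at 4.67, Cox6b2 one at 4.39 and Ndufaf3 one at 4.02. These 3 overlapped a WT H3K4me3 peak. The median over all peaks of that list was 4.94, so only the Uqcrq peak was above it. The DKO peak lay at Ndufa11, chr17:56717325-56717524, at 4.65 in list 1, in cells labelled as lacking WDR5. It overlapped the WT H3K4me3 peak of Ndufa11, and the nearest peak of WT WDR5 list 1 was 90033 bases away. Each of these WDR5 peaks also lay within 1000 bases of an end of a second protein-coding gene. That gene was Gdf9 for Uqcrq, Ccdc127 for Sdha, Fam71e2 for Cox6b2, Dalrd3 for Ndufaf3 and Vmac for Ndufa11. The WDR5 peaks thus cannot be assigned to one gene of the pair. The H3K4me3 calls at these members were not alike. Uqcrq was marked in DKO, KO and WT, Sdha, Ndufaf3 and Ndufa11 in DKO and WT, and Cox6b2 in WT alone.

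No P53 peak lay within 1000 bases of an end of any member in DKO or in WT, in any of the 4 lists (0 of 79 in each, Wilson 95% interval 0 to 4.64%). Over all protein-coding genes the shares were 0.0411% in either DKO list and 0.119% in either WT list, so 0 members is near the background. In WT, the nearest was a peak of list 1 at 2285 bases from Ndufv2.

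Other genes of the pathway were counted in the same way. Over all protein-coding genes, 22.8% were marked in DKO, 3.2% in KO and 35.5% in WT. Of 16 listed genes of complex V (ATP synthase), the inhibitor gene included, 12 were marked in DKO, 5 in KO and 14 in WT. The 5 in KO were Atp5a1 and Atp5b, which encode the catalytic alpha and beta subunits, Atp5pb, Atp5l and the inhibitor gene Atpif1. Atp5b had 4.40 in DKO, 5.77 in KO and 6.07 in WT. Cycs, which encodes cytochrome c, had 4.84 in DKO, 4.59 in KO and 6.31 in WT, and a WDR5 peak in WT list 1. Cyc1, the cytochrome c1 subunit of complex III, had no peak in DKO, 5.23 in KO and 4.28 in WT.

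Of 23 assembly factor genes of complexes II, III and IV, 15 were marked in DKO, 0 in KO and 18 in WT. The KO share over all protein-coding genes was 3.2%, so 0 of 23 is near the background. Taco1, a translational activator of a complex IV subunit, had the highest WT value of this list at 9.68, with 5.34 in DKO and no peak in KO. Of 10 regulators of respiratory genes, 6 were marked in DKO, 1 in KO and 7 in WT. The one in KO was Tfb2m, a mitochondrial transcription factor, at 6.32 in DKO, 3.87 in KO and 6.60 in WT. Nrf1 itself had 5.15 in DKO, no peak in KO and 5.08 in WT. Esrra, a nuclear receptor of energy metabolism, was the regulator with a WDR5 peak, which was in both WT lists and in neither DKO list.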

How the data were processed

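The deposited files are 11 CUT&RUN peak lists in 7 groups of genotype and antibody (WDR5, P53 or H3K4me3). Per the file headers, the authors ran MACS (version 2.1.2 or 2.1.0.20150731) in paired-end mode without a control library. The q cutoff was 0.01, background was taken over 10 kb, and a position kept no more than 2 fragments. The submitters' processing notes also name Bowtie2, SAMtools 1.5, bedtools, HOMER 4.10 and mm10. The deposited pileup is an unscaled signal of fragment coverage at each summit. Fold enrichment (a ratio to the local background) and the -log10 p and -log10 q values were deposited per peak and used unchanged, and values of different lists are not scaled to each other. The libraries held 22.3 to 57.5 M fragments. Lists numbered 2 were made from merged alignments per the file headers. In them, 77.3% (WT WDR5), 80.3% (WT P53), 75.3% (DKO WDR5) and 10.6% (DKO P53) of summits lay on the base of a list 1 summit. The DKO P53 share was low, and whether its list 2 is a separate library is not established. No group was counted as replicated.

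Autosomal, X and Y peaks were used, and 35 mitochondrial peaks were dropped. RefSeq (GRCm38.p6) gave gene spans, and its promoter table gave strands. For WDR5 and P53 a gene was counted where both lists of a genotype had a peak, or either, as stated. No test between genotypes was made. The planned protein sequences were not analysed here, and 1 member is counted but not reported by name. Genes were named by complex: those with a KO, WDR5 or P53 peak, the highest in WT, those absent from WT, and those marked in one genotype alone; genes of the other lists are examples. The members and gene lists were chosen with earlier results of these data known. The matching of peaks to gene ends was tested on simulated data, with peaks planted inside and outside the window. For those planted outside, the check could not fail, so it covers only peaks inside the window. Alternatives were windows of 500 and 5000 bases, -log10 q of at least 5, the gene start only, RefSeq starts (chosen after seeing the data), lists of equal length, and single lists. Python 3.11.15, pandas 2.3.3, numpy 2.4.6, scipy 1.17.1 and matplotlib 3.10.9 were used.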

Additional observations from a re-analysis of the deposited data

How the results depend on the processing

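Of 80 alternative values, 67 stayed within 1.5 times the count first given and 13 did not. Lists shortened to 918 peaks each gave the largest shifts, with 13 members marked in DKO and 18 in WT, 9 in both DKO and WT, 4 in both WT and KO, 5 in both DKO and KO, 8 in DKO and not in KO, and 5 in KO and not in DKO. Overlaps of the shortened lists were not counted over all genes. With -log10 q of at least 5, 2 members were marked in KO and not in DKO. Ndufa7 and Cox7c, first marked in DKO alone, had no peak at that setting. For WDR5, a window of 5000 bases gave 1 member in both WT lists, and a peak in either list gave 1 member in DKO and 4 in WT. Leaving out 1 list gave 0 to 1 members in DKO and 0 to 4 in WT, and list 1 alone held every one of them. For P53 the count was 0 under each alternative run. With the upstream span end only, 63 members with a known strand were left, and 36 were marked in DKO, 8 in KO and 48 in WT. Measured from RefSeq starts, an alternative chosen after seeing the data, the same 63 members gave 39 in DKO, 8 in KO and 51 in WT. No paired analysis was possible because the counts come from no test. The KO library was the shallowest H3K4me3 library, the part of depth in its counts was not tested, and absence of a peak there does not show absence of the mark. Near neighbours limit the assignment of peaks to genes.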
